A study of Mus musculus with 2 samples.

Results

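The cells described here are macrophages of mouse tumours with high counts of complement C1q and low counts of the enzymes and chemokine that mark the polarised states around them. They were selected on measured values of single-cell RNA data, with 1 CD94-KO library and 1 wild-type (WT) library. A barcode was a member if it had at least 1000 UMIs (unique molecular identifiers, each counting 1 captured RNA molecule), under 10% mitochondrial UMIs, at least 20 UMIs over C1qa, C1qb and C1qc, at least 5 of Lyz2, under 10 of Arg1 and under 10 over Nos2 and Cxcl9. Barcodes with any UMI of Cd3d, Cd3e or Cd3g, or with more than 2 over the dendritic cell genes Cd209a, Flt3 and Kmo, were left out. The rule took 192 of 7642 barcodes that passed the depth and mitochondrial limits, and of 10533 barcodes in all. There were 129 members among 4431 such barcodes of the CD94-KO library and 63 among 3211 of the WT library.

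CD94, encoded by Klrd1, is a lectin-like receptor of NK cells and some T cells. CD94-KO mice and WT mice, both C57BL/6J and 6 to 8 weeks old, carried subcutaneous tumours of a line not given in the sources used here, and each library came from 5 mice. Live cells, negative for the dye 7AAD and positive for the leukocyte antigen CD45, were sorted and captured with droplet-based 3′ chemistry. The cells of the 5 mice in a library could not be told apart, and there was no replicate library. No difference was therefore tested, and every interval given, at 95%, covers counting error only.

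C1q is the recognition unit of the classical complement pathway, built from 3 chains encoded by C1qa, C1qb and C1qc, and it also helps phagocytes take up dying cells. Tissue and tumour macrophages are its main producers, unlike most complement proteins, which come from the liver. Arg1 encodes arginase, which consumes arginine and is induced by type 2 cytokines and low oxygen, while Nos2 (nitric oxide synthase) and the chemokine gene Cxcl9 are induced by interferon gamma. Apoe (a lipid carrier), Mrc1 (the mannose receptor CD206) and Ms4a7 (a membrane protein of the MS4A family) are common markers of C1q-producing macrophages.

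The C1q genes, whose counts chose the members, lie side by side on chromosome 4 of GRCm38, on the minus strand, with C1qb at chr4:136880129-136886187, C1qc at chr4:136889804-136893065 and C1qa at chr4:136895917-136898803 (GENCODE M21). The promoters of C1qb (chr4:136886151-136886450) and C1qc (chr4:136892865-136893164) are shown because both genes define these cells. Each runs from 250 bases before to 50 after the start site, 5′ to 3′ on the gene's own strand, and was taken from RefSeq, build GRCm38.p6, which held both. Capitals mark GAGGAA or its complement TTCCTC, the core bound by the myeloid factor PU.1, searched on both strands.
C1qb: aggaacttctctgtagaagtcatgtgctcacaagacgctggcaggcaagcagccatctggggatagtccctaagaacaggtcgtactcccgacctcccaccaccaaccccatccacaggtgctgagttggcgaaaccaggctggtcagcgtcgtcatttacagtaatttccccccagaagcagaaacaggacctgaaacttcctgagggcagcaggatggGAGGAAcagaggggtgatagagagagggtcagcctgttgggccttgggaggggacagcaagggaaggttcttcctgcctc
C1qc: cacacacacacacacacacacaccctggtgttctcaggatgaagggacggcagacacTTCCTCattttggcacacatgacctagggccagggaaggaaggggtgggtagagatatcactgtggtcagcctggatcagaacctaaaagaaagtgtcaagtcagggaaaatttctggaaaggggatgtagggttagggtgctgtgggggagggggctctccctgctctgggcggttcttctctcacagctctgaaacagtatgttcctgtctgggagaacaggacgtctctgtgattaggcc
C1qb held 1 such match and C1qc 1, on the other strand. Of 32851 mouse promoters of this length, 9289 (28.3%) held at least 1, so the matches are a description of these windows and not binding sites.

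The counts that chose the members spread widely. C1qa, C1qb and C1qc together ranged over 20 to 152 UMIs in CD94-KO members, with a median of 42, and over 20 to 152 with a median of 39 in WT members. Lyz2 (lysozyme) had a median of 88 UMIs in CD94-KO and 55 in WT members. Low did not mean absent for the polarisation genes. Arg1 was at 0 in 57 CD94-KO members (44.2%) and 26 WT members (41.3%), Nos2 and Cxcl9 together in 71 (55%) and 27 (42.9%), and all 3 in 35 (27.1%) and 12 (19%). Just inside the C1q limit, at 20 to 24 UMIs, were 20 CD94-KO and 14 WT barcodes, and just outside it, at 15 to 19, were 28 and 21. Just inside the Arg1 limit, at 5 to 9, were 13 and 8, and just outside, at 10 to 14, were 8 and 3. For Nos2 and Cxcl9 the counts were 10 and 5 inside and 11 and 4 outside. The limits thus cut through a continuous range of counts, as the plot of Arg1 against Nos2 and Cxcl9 shows.

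**Figure D1:**
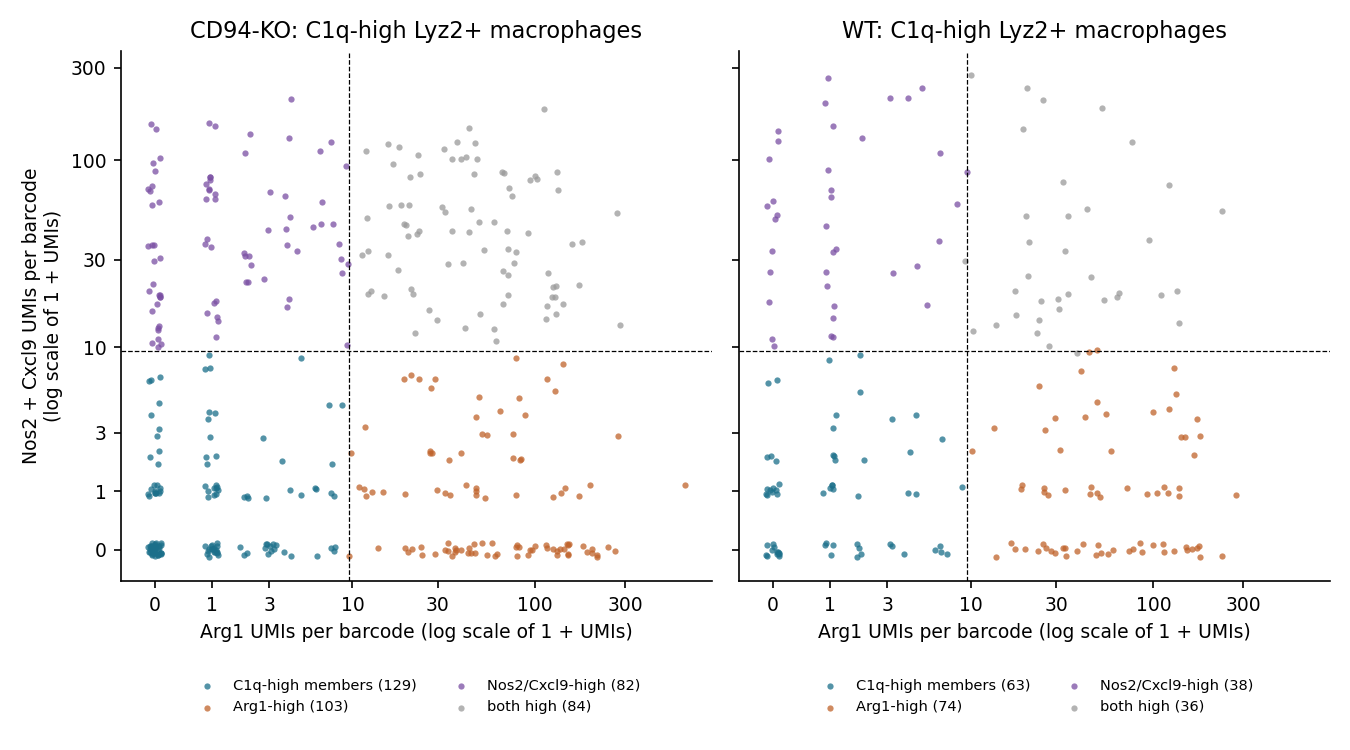
Arg1 UMIs (x axis) against Nos2 plus Cxcl9 UMIs (y axis), both on a log scale of 1 plus the count with a small random offset for visibility, in each C1q-high Lyz2+ macrophage of the CD94-KO (left) and WT (right) libraries. Dashed lines mark the limit of 10 UMIs, and the members fill the lower left corner with 129 and 63 barcodes.

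C1q-high Lyz2+ macrophages are here all barcodes that met the other parts of the rule, with any Arg1, Nos2 and Cxcl9 count. Members were 129 of 398 such cells in CD94-KO (32.4% [27.8 to 37.3], exact Clopper-Pearson) and 63 of 211 in WT (29.9% [23.8 to 36.5]). The others were 103 CD94-KO and 74 WT Arg1-high cells (at least 10 Arg1 UMIs), 82 and 38 Nos2/Cxcl9-high cells (at least 10 over the 2 genes), and 84 and 36 cells high for both. Members made up 2.91% [2.44 to 3.45] of the CD94-KO barcodes that passed the depth and mitochondrial limits, and 1.96% [1.51 to 2.5] of the WT barcodes. With all limits set per 10000 UMIs in place of raw counts, the shares of C1q-high macrophages were 39.4% in CD94-KO and 40% in WT, so the order of the libraries depended on the limits. Median depth was 10716 UMIs in CD94-KO and 9711 in WT members, against 13501 and 17459 in Arg1-high and 13747.5 and 13818.5 in Nos2/Cxcl9-high cells, and the part of depth in the shares was not tested. The share of mitochondrial UMIs had a median of 1.39% in CD94-KO and 1.45% in WT members.

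Marker genes placed the members among macrophages, with 1 exception. Levels are given as CPM, the UMIs of a gene summed over a set of cells and scaled to a common total. CD94-KO members held Apoe at 2035 CPM [1962 to 2110] and WT members at 1751 CPM [1652 to 1855], and 86% and 88.9% of members had an Apoe UMI. Mrc1 stood at 302.8 CPM [275.2 to 332.5] in members of the CD94-KO library and at 235.2 CPM [199.8 to 275] in those of the WT library, found in 71.3% and 60.3% of them. Both shares were far above those of barcodes with lymphocyte RNA, of which 26% (CD94-KO) and 33.6% (WT) had an Apoe UMI and 6.38% and 6.24% an Mrc1 UMI, at median depths of 6538 and 7379 UMIs. With every barcode thinned to 2000 UMIs, Mrc1 was found in 37.2% of CD94-KO and 31.7% of WT members, against 2.65% and 2.11% of the lymphocyte barcodes. Ms4a7, in contrast, was sparse, with 61.9 CPM [49.8 to 76.1] from 90 UMIs in CD94-KO and 56.9 [40.3 to 78.1] from 38 UMIs in WT members. It was found in only 19.4% of CD94-KO and 27% of WT members, above the 2.95% and 2.27% of lymphocyte barcodes, so Ms4a7 did not mark most of these cells. Csf1r, the receptor for the macrophage growth factor, was found in 97.7% of CD94-KO and 95.2% of WT members.

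Of 18 genes used for resident-type macrophages, 1 was at 0 in CD94-KO and 3 in WT members, and the list summed to 1833 and 1769 CPM. The same list summed to 3015 and 2317 CPM in Arg1-high and 1299 and 779.8 in Nos2/Cxcl9-high cells. Some of its genes gave few UMIs. Timd4, a receptor for dying cells, gave 1 UMI in CD94-KO and 0 in WT members, and the haemoglobin scavenger receptor Cd163 gave 2 and 0. Lyve1, a hyaluronan receptor of vessel-associated macrophages, gave 2 UMIs in CD94-KO members and 17 in WT members, in each library in 1 barcode. The folate receptor gene Folr2 was found in 9.3% of CD94-KO and 7.94% of WT members, against 0.164% and 0.378% of lymphocyte barcodes. RNA of monocyte genes was present. Ly6c2, the surface antigen of inflammatory monocytes, was found in 83.7% of CD94-KO and 69.8% of WT members, against 36.2% and 42.7% of lymphocyte barcodes, some of which express it too. Ccr2, the receptor that brings monocytes out of the marrow, was found in 93% and 87.3% of members but also in 74.6% and 68.4% of lymphocyte barcodes, so its share did not set the members apart. The 6 monocyte markers summed to 5089 CPM in CD94-KO and 3895 in WT members, to 2862 and 1733 in Arg1-high cells, and to 5623 and 3586 in Nos2/Cxcl9-high cells. A wider list of 16 monocyte genes was level, at 15470 CPM in CD94-KO and 13170 in WT members and at 15320 and 13460 in Arg1-high cells. Of its 11 measured genes, Ly6c2, Plac8 and Ms4a4c were at least 1.5-fold higher in members than in Arg1-high cells in both libraries, and Fn1 lower. Both Mrc1 and Ly6c2 were found in 78 of 129 CD94-KO members (60.5%) and 25 of 63 WT members (39.7%). The same pair was found in 39.8% and 24.3% of Arg1-high cells and in 20.7% and 21.1% of Nos2/Cxcl9-high cells of the CD94-KO and WT libraries.

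Single members differed more than the 2 sums. Apoe ran over 0 to 553 UMIs per 10000 in CD94-KO members with a median of 12.9, and over 0 to 124 with a median of 8.49 in WT members. Ly6c2 ran over 0 to 104 with a median of 7.78 in CD94-KO, and over 0 to 65.8 with a median of 3.96 in WT. H2-Ab1, a chain of MHC class II, had a median of 69.5 in CD94-KO (quartiles 41 and 91.1) and 53.7 in WT (quartiles 11.5 and 75.8). The members therefore ranged from barcodes with no Ly6c2 or Apoe UMI to barcodes where either was among the abundant genes.

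RNA of other cell types was looked for with marker lists. T cell markers (5 genes) gave 3 UMIs in CD94-KO and 1 in WT members, with Cd3 genes at 0 by rule, and mast cell (4 genes) and red cell (2 genes) markers gave 0. Fibroblast markers (5) gave 9 and 4 UMIs. NK cell markers (5, none at 0) summed to 346.2 CPM in CD94-KO and 459.9 in WT members, most of it Gzma (249.8 and 295.1 CPM). B cell markers (4) summed to 61.3 CPM from 89 UMIs in CD94-KO and 1.5 CPM from 1 UMI in WT members, where Cd79a and Ms4a1 were at 0. Neutrophil markers (5, Retnlg at 0 in both) summed to 177.6 and 118.3 CPM. Plasmacytoid dendritic cell markers (3, of which 2 were at 0 in CD94-KO) summed to 419.1 CPM in CD94-KO and 329.6 in WT members. The same markers summed to 323.5 and 358.1 CPM in the other barcodes that passed the limits. In CD94-KO members the whole sum came from the remaining gene, so the markers were not found there as a set. Conventional dendritic cell markers (7, some limited by the rule) summed to 30.3 CPM in CD94-KO and 18 in WT members. At least 2 UMIs of NK, B or T cell markers were found in 19 CD94-KO members (14.7%) and 14 WT members (22.2%), against 13.6% and 21.6% of Arg1-high and 11% and 18.4% of Nos2/Cxcl9-high cells of the CD94-KO and WT libraries. Klrd1 itself gave 19 UMIs (13.1 CPM [7.87 to 20.4]) in CD94-KO and 36 (53.9 CPM [37.8 to 74.7]) in WT members, and 80.1 and 148 CPM over all barcodes that passed the limits. Which bases of Klrd1 the mice lack is not given in the sources used here, so 3′ counts do not check the genotype.

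Against the Arg1-high macrophages, members carried more RNA of Ly6c2, of interferon-response genes and of antigen-presentation genes and less of matrix and glycolysis genes, in both libraries. Because Arg1 counts drew these sets apart, the differences describe what went with low Arg1 and are not tests. Of 2741 genes with at least 100 UMIs over both sets in each library, 129 (4.71%) were at least 1.5-fold higher in members in both libraries and 74 (2.70%) at least 1.5-fold lower, on the ratio of CPM + 5. The median difference in log2(CPM + 5) over all these genes was 0.02 in CD94-KO and 0.00 in WT.

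The top of the list was Tmem176b, a transmembrane protein of dendritic cells and macrophages. It stood at 148.7 CPM in CD94-KO members against 21.02 in Arg1-high cells (7.07-fold [4.89 to 10.5]), and at 158.8 against 27.01 in WT (5.88-fold [4.02 to 8.76]). A UMI of it was found in 50.4% of CD94-KO and 54% of WT members, but also in 28% and 21% of lymphocyte barcodes. With every barcode thinned to 2000 UMIs, the shares were 17.8% and 19% of members against 18.9% and 11.9% of lymphocyte barcodes. At that depth, Tmem176b did not set CD94-KO members apart from lymphocyte barcodes. Its neighbour and partner Tmem176a was 6.35-fold higher in CD94-KO and 3.84-fold in WT. Pltp, which moves phospholipids between lipoproteins, stood at 183.1 against 49.68 CPM in CD94-KO (3.68-fold) and 190.3 against 41.94 in WT (4.54-fold). Ly6c2 stood at 1498 against 477.7 CPM in CD94-KO (3.13-fold) and 1149 against 188.4 in WT (6.1-fold). Ptafr, the receptor for platelet-activating factor, Adgre5 (CD97), Slamf8, Fam26f and Ms4a4c were each at least 2.57-fold higher in both libraries.

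Interferon-response genes stood higher as a group. Of 19 type I interferon genes found, the 6 with enough UMIs were all at least 1.5-fold higher in both libraries, with a median difference of 1.12 in CD94-KO and 1.6 in WT on the log2 scale. Ifi27l2a, an interferon-inducible mitochondrial protein, stood at 2186 against 858 CPM in CD94-KO and 1690 against 556.6 in WT, and Irf7, a transcription factor of this response, at log2 differences of 1.14 and 1.69. Of 14 measured genes of an interferon gamma list, 8 were higher and 0 lower, with medians of 0.812 in CD94-KO and 0.626 in WT. Among them were the GTPase genes Gbp2 (1.10 and 0.93) and Irgm1 (1.35 and 1.11), and Cd274, the checkpoint ligand PD-L1 (0.65 and 0.62). Of 9 measured genes of MHC class II presentation, 5 were higher and 0 lower, with medians of 0.685 and 0.65. H2-Aa had differences of 1.07 in both libraries and the invariant chain Cd74 0.95 in CD94-KO and 0.65 in WT. In the MHC class I list 4 of 10 were higher, H2-T23, which encodes the CD94/NKG2A ligand Qa-1, among them (0.83 and 1.04).

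Genes of matrix remodelling and of metabolism stood lower. Of 12 measured matrix genes, 5 were at least 1.5-fold lower in members in both libraries and 0 higher, with medians of -0.857 in CD94-KO and -0.47 in WT. Fn1 (fibronectin) stood at 666.2 against 2835 CPM in CD94-KO and 816.4 against 3108 in WT, and Spp1 (osteopontin) at 269.1 against 1305 and 701.1 against 1801. Mmp12, the macrophage elastase, was at 100.5 against 392.4 and 61.42 against 665.3 CPM, and Timp1, an inhibitor of such proteases, at 31.66 against 210.8 and 31.46 against 126.5. Of 21 measured genes of glycolysis and the hypoxia response, 12 were lower and 0 higher, with medians of -0.788 and -0.625. Glycolytic enzymes among them were Tpi1 (-0.93 and -0.73), Gapdh (-0.72 and -0.73) and Ldha (-0.88 and -0.62), and Bnip3, a hypoxia-induced gene of mitochondrial turnover, differed by -1.42 and -1.06. Oxidative phosphorylation genes had 0 lower and 1 higher (Ndufa4) of 25, with medians of -0.066 and -0.11. Slc7a2, an arginine transporter, stood at 16.52 against 212.1 CPM in CD94-KO (24 UMIs in members) and 37.45 against 164.9 in WT. In the members, over 50% of the UMIs of Pf4, Spp1, Mgl2, Pdpn and Mmp12 lay in 5 barcodes in each library (Spp1, 60.1% in CD94-KO and 70.1% in WT), while those of Fn1 were less concentrated (29.5% and 39.6%).

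Several C1q-associated markers were lower in the members than in the Arg1-high cells. Mrc1 stood at 302.8 against 494.9 CPM in CD94-KO and 235.2 against 313.5 in WT, Ms4a7 at 61.94 against 168.8 and 56.93 against 168.5, and Pf4 (a platelet-type chemokine also made by resident macrophages) at 94.97 against 592.4 and 160.3 against 699.4. The lectin gene Mgl2 stood at 55.74 against 342.7 CPM in CD94-KO and 70.41 against 397.3 in WT, and podoplanin (Pdpn) at 55.06 against 369.5 and 92.88 against 562.3. Trem2, a lipid receptor of tumour macrophages, differed by -0.91 and -0.80. In the list of lipid-handling genes 1 of 14 measured was higher (Pltp) and 3 lower (Trem2, Cd9, Spp1), with medians of -0.0777 and -0.156. Of 15 measured chemokine genes, Ccl4, Ccl5 and Cxcl10 were higher in both libraries and Ccl12 and Pf4 lower. Within the MS4A list, Ms4a4c, Ms4a6b and Ms4a6c were higher and Ms4a7 lower. Its median in CD94-KO was 0.754, but -0.146 with genes of 20 to 99 UMIs counted too.

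**Figure D2:**
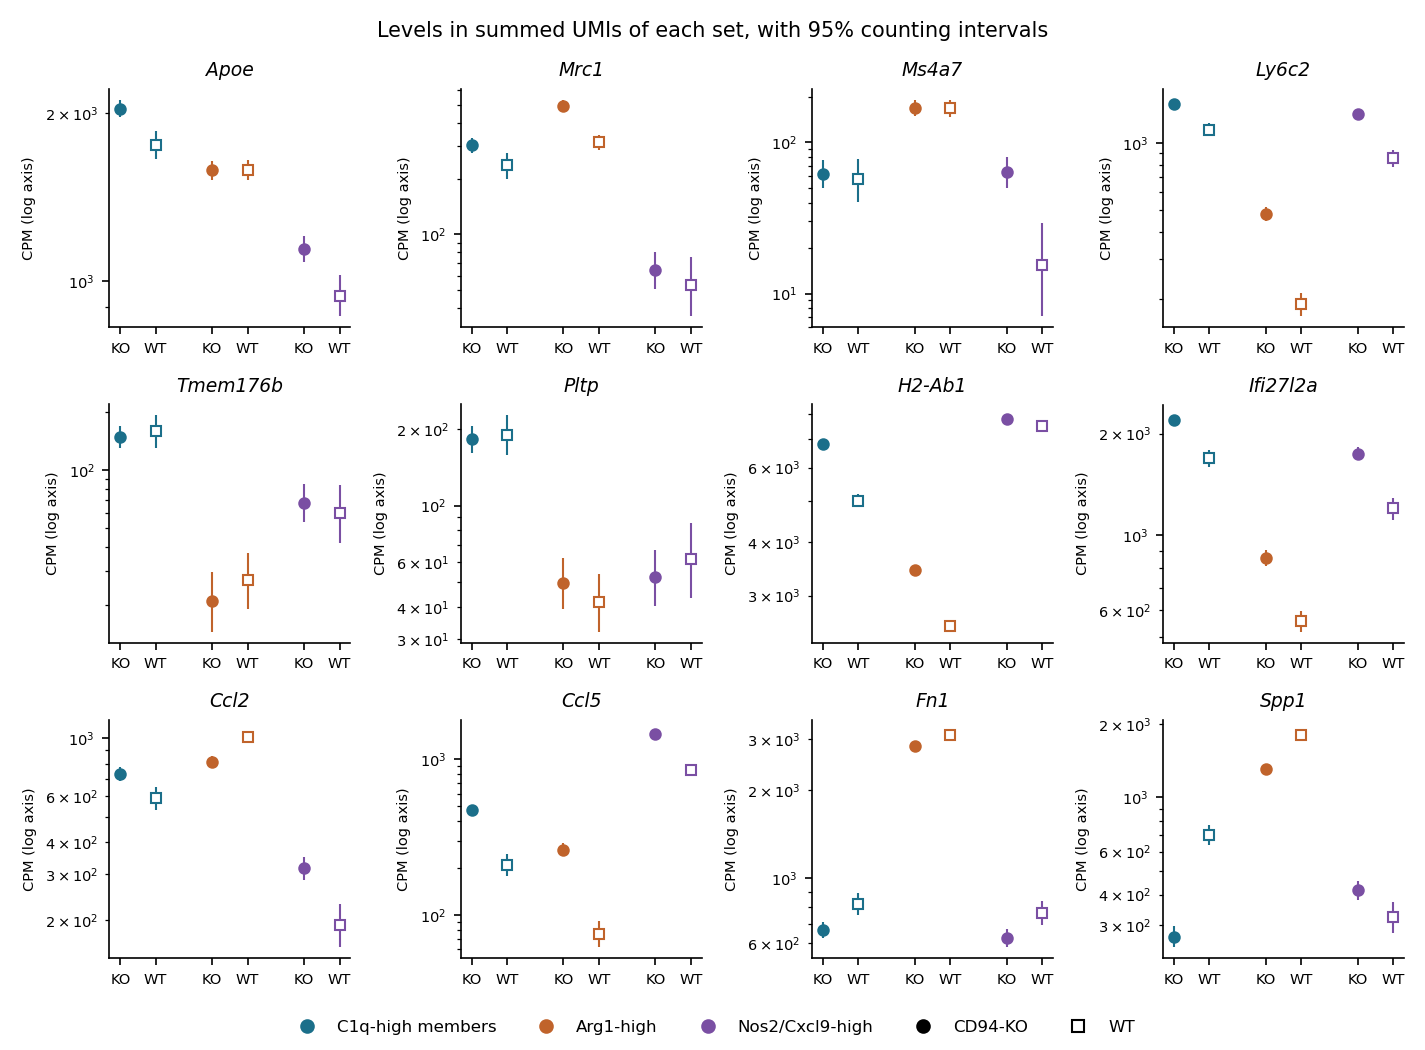
CPM (log axis) of 12 genes in the summed UMIs of C1q-high members, Arg1-high and Nos2/Cxcl9-high macrophages, CD94-KO (filled circles) left of WT (open squares) in each colour, with exact Poisson 95% intervals. Ly6c2, Ifi27l2a and H2-Ab1 are lowest in Arg1-high cells, Mrc1 and Ccl2 lowest in Nos2/Cxcl9-high cells, and Tmem176b and Pltp highest in the members.

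Against the Nos2/Cxcl9-high macrophages, fewer genes differed, and the members stood higher for Mrc1, monocyte-attracting chemokines and Apoe and lower for interferon gamma targets. Nos2 and Cxcl9, whose counts drew these sets apart, are themselves induced by interferon gamma. The differences therefore describe what went with low Nos2 and Cxcl9 and are not tests. Of 1773 genes, 39 (2.20%) were at least 1.5-fold higher in members in both libraries and 38 (2.14%) lower, with medians over all genes of 0.00 in both libraries. Mrc1 led with 302.8 against 64.29 CPM in CD94-KO (4.71-fold) and 235.2 against 53.25 in WT (4.42-fold). Ccl2, which attracts monocytes through Ccr2, stood at 727.4 against 316.4 CPM in CD94-KO and 588.7 against 190.7 in WT. Ccl7, which acts on the same receptor, stood at 298 against 93.05 and 272.6 against 13.74. It was found in only 31% of CD94-KO and 39.7% of WT members, and 5 barcodes held 45.3% and 61% of its UMIs in the members. With Nos2/Cxcl9-high cells taken at any C1q count, Ccl2 differed by -0.05 in WT. Of 12 measured chemokine genes, 5 were higher in the members (Ccl2, Ccl7, Ccl9, Ccl24, Cxcl2) and 3 lower (Ccl5, Cxcl10, Cxcl16). Ccl5, which attracts T cells, stood at 468.7 against 1455 CPM in CD94-KO and 209.7 against 850.2 in WT, and Cxcl16 at 275.3 against 738.5 and 418 against 853.6.

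Of 16 measured interferon gamma genes, 4 were lower and 0 higher, with medians of -0.405 in CD94-KO and -0.703 in WT. These were Gbp2 (-0.89 and -1.34), Iigp1 (-0.86 and -1.16), Cxcl10 and Cxcl16. MHC class II genes, which separated the members from Arg1-high cells, had 0 of 10 past 1.5-fold in either direction, with medians of -0.104 and -0.395. Glycolysis and hypoxia genes were again lower, 4 of 19 (Slc2a1, Hk2, Pfkp and Tpi1) with 0 higher and medians of -0.621 and -0.392. Slc2a1, a glucose transporter, differed by -0.94 in both libraries. Of 5 measured resident-type genes, Mrc1, F13a1 and Sepp1 were higher, but F13a1 is also among the 6 monocyte markers. Sepp1 encodes selenoprotein P, a selenium carrier, and stood at 218.9 against 93.89 CPM in CD94-KO and 256.2 against 80.73 in WT. Of lipid-handling genes 3 of 13 were higher, namely Apoe (0.83 and 0.89), Pltp and Ctsd, a lysosomal protease (0.70 and 0.81). C3ar1, the receptor for the complement fragment C3a, stood at 262.9 against 116.7 and 242.7 against 94.47 CPM, whereas C3, the central complement component, differed by -0.91 and -1.69. Hmox1, which degrades heme, was higher than in both other sets, by 1.38 and 0.87 against Arg1-high and 0.78 and 1.54 against Nos2/Cxcl9-high cells.

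**Figure D3:**
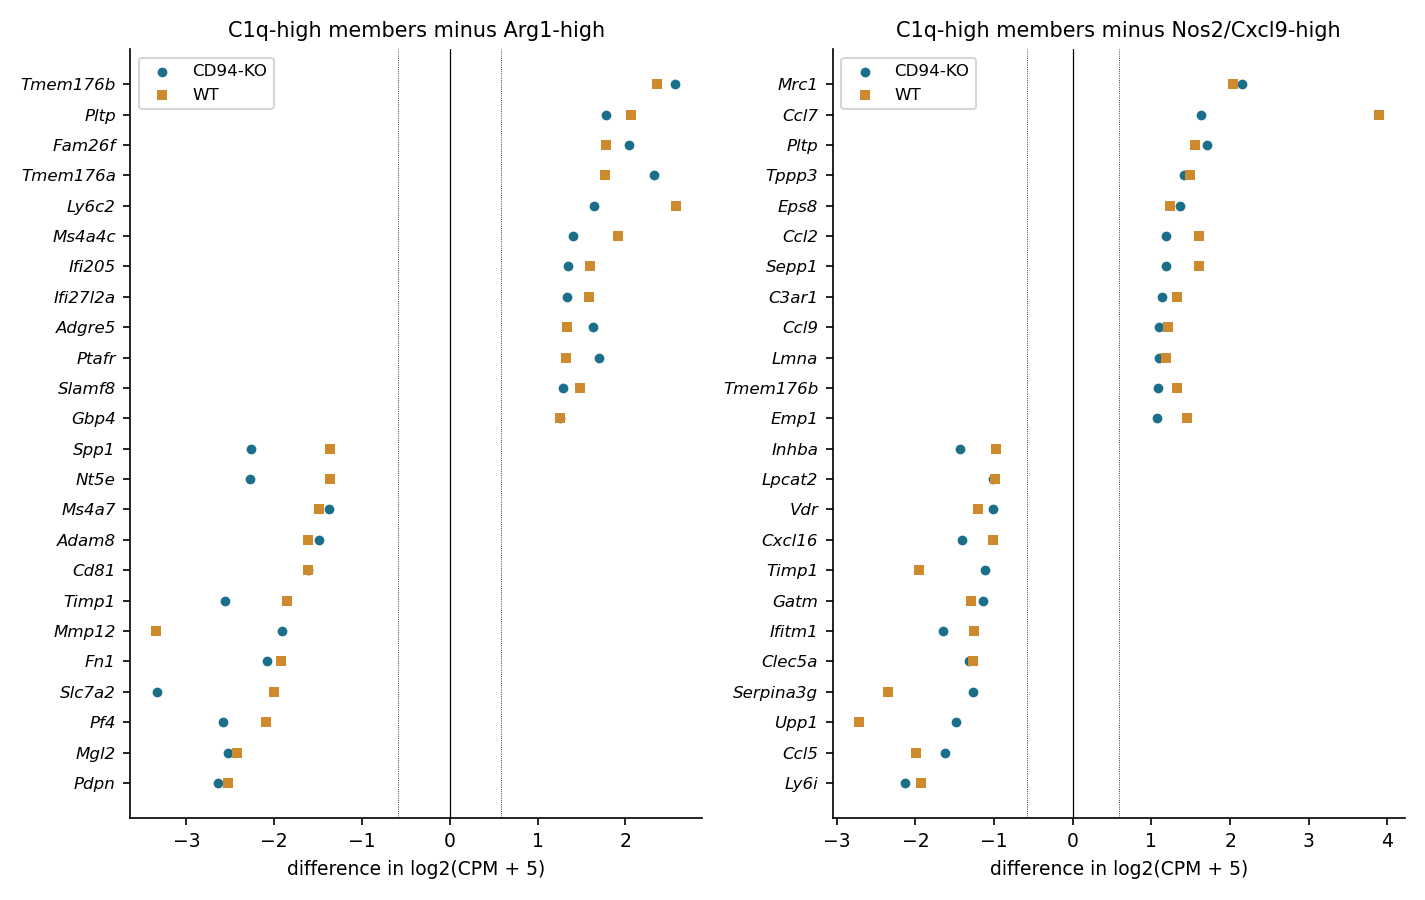
Difference in log2(CPM + 5), members minus Arg1-high (left) and members minus Nos2/Cxcl9-high macrophages (right), in the CD94-KO (circles) and WT (squares) libraries, for the 12 genes furthest in each direction. Dotted lines mark 1.5-fold, and the genes were ranked by the smaller of the 2 libraries' differences, so both points lie on the same side by choice.

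**Figure D4:**
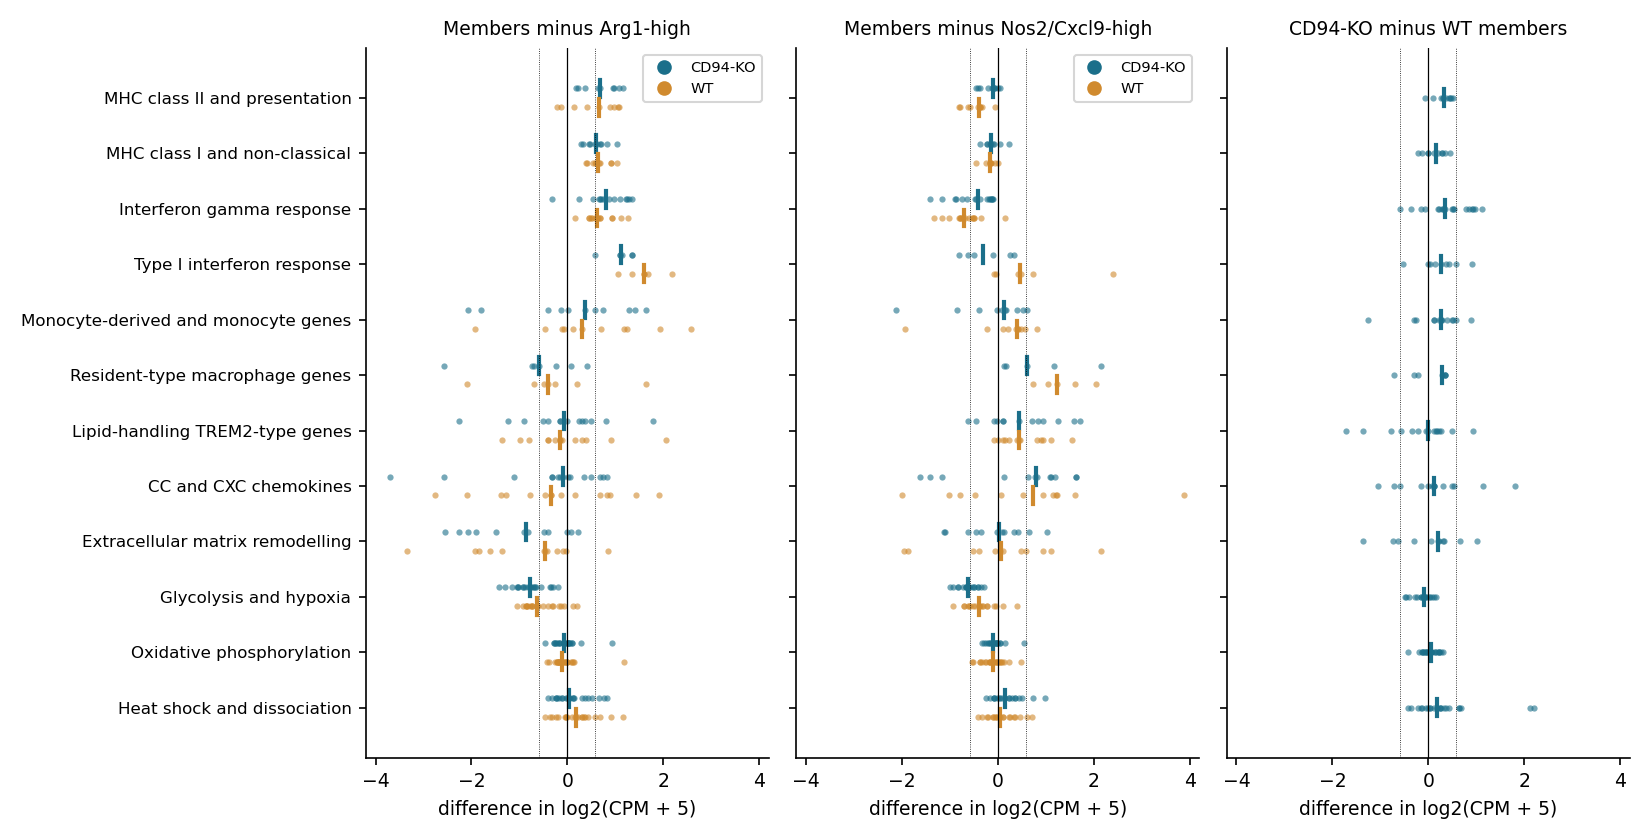
Difference in log2(CPM + 5) of each measured gene (dots) and the median (bars) of 12 gene lists, for members minus Arg1-high, members minus Nos2/Cxcl9-high, and CD94-KO minus WT members. In the left panel the interferon and MHC lists lie right of 0 and glycolysis and matrix lists left of it, while the median of every list in the right panel lies between the dotted 1.5-fold lines.

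Within the members, few genes went with C1q. When members of each library were split at the median of C1q UMIs per 10000, 993 genes could be compared, of which 8 (0.806%) were at least 1.5-fold higher in the upper C1q group in both libraries and 6 (0.604%) lower. Of the 8, 3 were the C1q genes that made the split. The other 5 were Apoe, Mrc1, C3ar1, Ccl7 and Pf4. Apoe stood at 2587 CPM in the upper against 1569 in the lower group in CD94-KO, and at 2360 against 1343 in WT. Mrc1 stood at 392.3 against 227.2 in CD94-KO and 336.1 against 167.6 in WT, and C3ar1 at 330.7 against 205.6 and 306.3 against 200.1. Lower in the upper group were Gzma, Chd7, Vegfa, Chil3, Prdx6 and Got1. Vegfa, the vascular growth factor, stood at 204.4 against 418.9 CPM in CD94-KO and 324.9 against 522.8 in WT. Gzma, a granzyme of NK cells, stood at 153.3 against 331.3 and 123.2 against 410.2 CPM, but was higher in the upper group, by 1.49 in CD94-KO and 1.56 in WT on the log2 scale, without the 4% of barcodes with the highest doublet scores. Without barcodes that held NK, B or T cell UMIs, 5 genes were higher, all among the 8, and 10 lower, and 2 of the 6 lower genes were among these 10. With each barcode thinned to 5000 UMIs, 422 genes could be compared. Only 3 of the 8 were then higher, and the 2 that were lower were not among the 6. The C1q genes are among the 8 because of the split itself. The numbers that stayed higher in these settings therefore do not show that any of the other 5 did.

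CD94-KO members, set against WT members, carried more RNA of heat-shock genes and of several interferon gamma targets and less of Spp1. In each library, 5 barcodes held over 50% of the UMIs of Hspa1a, Hspa1b and Spp1. Of 2885 genes with at least 100 UMIs over both sums, 103 (3.57%) were at least 1.5-fold higher in CD94-KO and 73 (2.53%) at least 1.5-fold lower, with a median over all genes of 0.03. Cell state, genotype and library cannot be told apart with 1 library each. Gm42418, a gene model that overlaps ribosomal RNA repeats, took 28480 CPM of CD94-KO and 41960 CPM of WT members, and its part in these differences was not tested.

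Heat-shock genes led the higher side. Hspa1a, an inducible chaperone, stood at 349.6 CPM in CD94-KO and 71.91 in WT members (4.86-fold [3.61 to 6.68]), and Hspa1b at 245 and 52.43 (4.67-fold [3.3 to 6.82]). With the membership limits set per 10000 UMIs, the log2 difference was 1.03 in place of 2.21 for Hspa1a and 0.796 in place of 2.12 for Hspa1b. The 5 highest of the 129 CD94-KO members held 53.7% of Hspa1a and 57% of Hspa1b UMIs. Of 23 measured genes of the heat-shock and dissociation list, genes that also respond to the handling of cells, 5 were higher (Hspa1a, Hspa1b, Hsph1, Dnajb1, Jun) and 0 lower, with a median of 0.186. The neighbouring sets showed the same direction: Hspa1a stood at 245.2 CPM in CD94-KO and 56.87 in WT Arg1-high cells and at 109.1 and 30.92 in Nos2/Cxcl9-high cells. A UMI of Hspa1a was found in 57 of 129 CD94-KO and 20 of 63 WT members, and the part of handling was not tested.

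Of 19 measured interferon gamma genes, 6 were at least 1.5-fold higher in CD94-KO members and 1, Cxcl16, lower, with a median of 0.34. Gbp2 stood at 633.2 CPM in CD94-KO and 320.6 in WT (1.98-fold [1.7 to 2.3]), Irgm1 at 155.5 and 80.9 (1.92-fold [1.42 to 2.64]) and Socs1, a feedback inhibitor of the pathway, at 58.5 and 23.97 (2.44-fold [1.42 to 4.46]). The others were Gbp5, Iigp1 and Igtp, at 67.4 and 33 CPM, 96.3 and 53.9 CPM, and 93.6 and 49.4 CPM in CD94-KO and WT. Cxcl10, at 436.3 CPM in CD94-KO members against 482.4 in WT members, lay within 1.5-fold. The MHC class II list had 0 of 10 past 1.5-fold, with a median of 0.332 and Cd74 at 13510 CPM in CD94-KO and 9514 in WT. Socs1 also stood higher in CD94-KO in the other sets, by 0.956 in Arg1-high and 1.13 in Nos2/Cxcl9-high cells. The interferon gamma list summed to 4945 CPM in CD94-KO and 4142 in WT members. Its sums were 2961 and 2744 in Arg1-high and 7678 and 6913 in Nos2/Cxcl9-high cells. In all other barcodes that passed the limits it summed to 4476 and 3606. The MHC class II list summed to 38020 and 28440 CPM in members and 18750 and 13970 in those other barcodes. Higher sums in CD94-KO were thus not particular to the members.

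Several of the largest differences rested on 1 or a few barcodes, and values of the highest member are given with them. Ccl5 stood at 468.7 CPM in CD94-KO and 209.7 in WT members. The highest CD94-KO member held 137 of 681 Ccl5 UMIs and also 141 UMIs of NK cell markers, and without barcodes with NK, B or T cell UMIs the difference was 0.0599 in place of 1.14. Areg, an EGF family growth factor, stood at 148.7 and 58.42 CPM, with 149 of 216 CD94-KO UMIs in 1 member, and its difference turned to -1.06 without the same barcodes. On the lower side, Gzmc (11.01 CPM in CD94-KO and 602.2 in WT) had 381 of 402 WT UMIs in 1 member that held 127 NK marker UMIs, and Retnla, a marker of alternative activation, had 629 of 631 WT UMIs in 1 member with 0 NK marker UMIs. The WT member with the 127 NK marker UMIs also held 76 of 178 Ctla2a and 56 of 79 Gzmb UMIs. Without barcodes with NK, B or T cell UMIs, 10 of the 12 genes furthest higher stayed past 1.5-fold, the exceptions being Areg and Ccl5. Of the 12 furthest lower, 10 stayed past it, the exceptions being Ctla2a and Gzmb. Gzmc was among those counted as past 1.5-fold, but its difference was then -0.942 in place of -5.25. Over all genes, 93 were then higher and 52 lower, of which 57 and 29 were among the 103 and 73. Over 50% of the UMIs lay in 5 barcodes for 8 of the 103 higher genes in CD94-KO and 29 of the 73 lower genes in WT, against 32 and 132 of all 2885 in the CD94-KO and WT libraries.

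Mmp19, a matrix protease, stood at 280.8 CPM in CD94-KO and 136.3 in WT and was found in 86 of 129 and 34 of 63 members, with at most 26 UMIs in 1 barcode. Mgst1, a glutathione transferase, stood at 89.47 and 37.45 CPM and Cttnbp2nl at 79.83 and 32.96 CPM, found in 67 CD94-KO and 17 WT members. On the lower side, Spp1 stood at 269.1 CPM in CD94-KO and 701.1 in WT and was found in 53 and 27 members, with 60.1% and 70.1% of its UMIs in 5 of them. Lpl, lipoprotein lipase, stood at 57.12 and 197.7 CPM, with 68 of 132 WT UMIs in 1 member and 88.6% in 5. Aebp2, a partner of a chromatin-silencing complex, stood at 43.36 and 101.9 CPM, found in 40 CD94-KO and 33 WT members. Of the chemokine list 2 of 14 were higher (Cxcl1, Ccl5) and 3 lower (Ccl24, Cxcl16, Pf4), and 0 of 19 glycolysis and hypoxia genes lay past 1.5-fold.

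In the neighbouring macrophages, the same contrast had the same direction as in the members for some of these genes and the opposite direction for others. Cxcl1, a neutrophil attractant, stood at 133.5 CPM in CD94-KO and 34.45 in WT members but at 93.64 and 261.6 in Arg1-high cells, and its difference in members was 0.289 in place of 1.81 with limits per 10000 UMIs. Spp1 stood at 1305 and 1801 CPM in CD94-KO and WT Arg1-high cells, a difference of -0.464, and at 417 and 322.9 CPM in Nos2/Cxcl9-high cells, a difference of 0.364. Ccl24 was lower in CD94-KO members (137 and 289.1 CPM) and far higher in CD94-KO Arg1-high cells (1821 and 73.93 CPM), with 138 of 199 CD94-KO and 129 of 193 WT UMIs of the members in 1 barcode each. Differences between the sets in these contrasts were not tested.

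**Figure D5:**
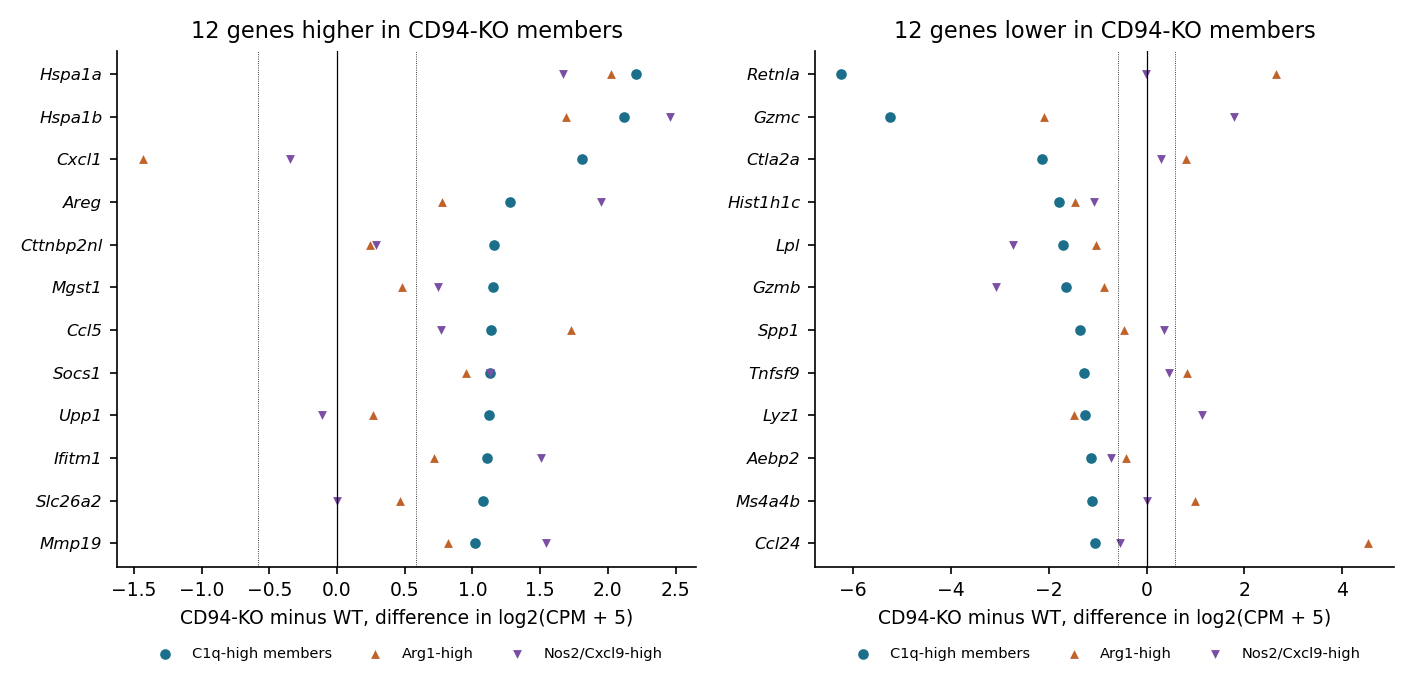
CD94-KO minus WT difference in log2(CPM + 5) in C1q-high members (circles), Arg1-high (upward triangles) and Nos2/Cxcl9-high macrophages (downward triangles), for the 12 genes furthest in each direction in the members. Hspa1a and Hspa1b lie past the dotted 1.5-fold line in all 3 sets, while Cxcl1, Retnla and Ccl24 lie on opposite sides of 0 in members and Arg1-high cells.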

How the data were processed

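Single-cell RNA was measured in 1 CD94-KO and 1 WT library of sorted CD45+ tumour cells. The deposited values are raw counts of UMIs per gene and barcode, written by Cell Ranger, version 5.0.0, per the file headers. The submitters' processing notes list mm10 and Seurat 4.0 with no role. The annotation release is not given in the sources used here. The barcodes that passed the limits held 45320184 UMIs in CD94-KO and 38052840 in WT, and the members 1453047 and 667542. No barcode sequence was shared between the libraries' members, and 8 were shared over all barcodes.

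The members, gene lists and comparisons were chosen with earlier results of these data known. UMIs were summed per library and set and scaled to CPM of the set total. Arg1-high and Nos2/Cxcl9-high sets met the same C1q, Lyz2, Cd3 and dendritic cell limits. Differences were taken in log2(CPM + 5), which understates low genes. A gene was compared with at least 100 UMIs over the sets, in each library for comparisons of sets. All intervals are 95%: exact Poisson for sums, Clopper-Pearson for shares, and conditional binomial (exact) for ratios. Computation used Python 3.11.15 with scipy 1.17.1 and was tested on simulated data.

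The text names the 12 genes furthest in each direction (8 for the split by C1q), ranked by the smaller library difference in comparisons of sets, with at least 50 CPM in the higher sum, 1.5-fold, and at least 0.25 of the level in all other barcodes. Genes of the rule, mitochondrial, ribosomal protein, haemoglobin, immunoglobulin and T cell receptor genes, Xist, Tsix, several Y-linked genes and unnamed models were not ranked. Members of the lists were named where abundant or past 1.5-fold, and genes shared between comparisons are given under each. Other genes and counts of single barcodes were chosen after their values were seen. Of 425 list symbols in 34 lists, 420 were found as written, 4 by an older name or gene ID, and 1 was not used here. Lymphocyte barcodes had at least 3 UMIs over Cd3d, Cd3e, Cd3g, Ncr1 and Klrb1c and under 5 of Lyz2.

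Doublets were scored per library with Scrublet in scanpy 1.11.5. Its automatic threshold marked 0 CD94-KO and 2 WT barcodes and so had not worked. Doublets were therefore not removed, and leaving out the 4% with the highest scores, which took 8 CD94-KO and 3 WT members, was an alternative. TMM factors came from edgeR 4.0.16. Counts over genes with a near-identical copy, such as Hspa1a and Hspa1b, may be split by the counting, and whether the counting used strand is not given in the sources used here.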

Additional observations from a re-analysis of the deposited data

How the results depend on the processing

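No paired analysis was possible because each genotype had 1 library, and no replicate could be left out. Counts of genes past 1.5-fold followed the gene minimum and the depth. With a minimum of 20 UMIs per gene they were 518 higher and 470 lower for CD94-KO against WT, 267 and 190 for members against Arg1-high, 177 and 77 against Nos2/Cxcl9-high, and 59 and 51 for the split by C1q. Thinned to 5000 UMIs per barcode they were 53 and 24, 50 and 38, 16 and 23, and 3 and 2, over 1288, 965, 701 and 422 genes tested. Of these, 20 and 10 were among the 103 and 73 for CD94-KO against WT, 41 and 34 among the 129 and 74, 12 and 16 among the 39 and 38, and 3 and 0 among the 8 and 6. With comparison sets at any C1q count they were 197 and 138 against Arg1-high and 81 and 84 against Nos2/Cxcl9-high. For the split by C1q, 5 were higher without NK, B or T cell UMIs, and 10 were lower both then and without the highest doublet scores. Leaving out barcodes with NK, B or T cell UMIs was an alternative chosen after seeing the data.

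Shares moved with the limits. Of barcodes that passed the depth and mitochondrial limits, members were 4.24% in CD94-KO and 3.15% in WT with a C1q minimum of 10, 1.6% and 0.965% with 40, and 3.88% and 2.74% with limits per 10000 UMIs, and 3.64% in CD94-KO at 5000 or more UMIs per barcode. Of C1q-high macrophages they were 39.4% and 40% with limits per 10000 UMIs, 27.4% and 23.7% with limits of 5 for Arg1 and for Nos2 with Cxcl9, and 21.8% in WT with a C1q minimum of 40.

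Values that turned sign were Areg, CD94-KO minus WT, at -0.796 with limits per 10000 UMIs and -1.06 without NK, B or T cell UMIs; Ccl2 against Nos2/Cxcl9-high in WT, at -0.0538 with any C1q count; Gzma between C1q groups, at 1.49 in CD94-KO and 1.56 in WT without the highest doublet scores and 1.3 in WT without NK, B or T cell UMIs; and the MS4A list against Arg1-high in CD94-KO, at -0.146 with 20 UMIs per gene and -0.000934 with any C1q count. The cause was not tested beyond the fewer or other genes and barcodes each setting used. Of the other values, 73 counts and shares, 1107 list medians and 1167 single-gene differences moved by less than their counting interval or, for counts, by less than 1.5 times, and 67 list medians and 201 single-gene differences moved further with the same sign.

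Depth limited the sparse genes, since 1 UMI in the members was worth more in WT than in CD94-KO and 63 WT barcodes gave the sums.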
